A study of Mus musculus with 40 samples.

Results

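Transcripts of 8 tight junction genes, Cldn5, Cldn10, Cldn12, Ocln, Tjp1, F11r, Cgn and Rab13, were followed by mRNA sequencing in the mouse midbrain and spinal cord. These genes were chosen by name, with earlier results of these data known, and they are 8 of the 40213 gene symbols in the count tables. The shares over all genes given below are thus a background for the counts of members, and not an independent test. All 8 passed the filter on low counts in both tissues. Cldn5, Ocln, Tjp1, F11r and Cgn formed the list of 5 members held to be endothelial, and Cldn10, Cldn12 and Rab13 were the 3 other members. The division came from general knowledge of the brain endothelium, and none of the 5 is limited to it.

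Tight junctions join neighbouring cells of an endothelium or epithelium and limit the passage of solutes between them. In the brain and spinal cord they close the capillary wall as part of the blood-brain and blood-spinal cord barriers. Claudins, occludin and junctional adhesion molecules cross the membrane, and scaffold proteins such as ZO-1 and cingulin tie them to actin on the inner side.

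The 40 libraries came from male C57BL/6N mice that were 8 weeks old when obtained, with 4 libraries in each of 5 groups of either tissue. Tissue was taken at the end of the experiment, after the treatments. The Con group received saline in place of MPTP, a toxin of dopaminergic neurons, and the other groups received MPTP at 20 mg/kg in 4 intraperitoneal injections. Con and MPTP-Veh mice were then injected with saline at the acupoint GB34, and MPTP-SU mice with SUEHP, a herbal pharmacopuncture preparation, in 4 injections that began 1 week after MPTP. MPTP-SU+S mice also received a CB1 antagonist at 3 mg/kg, spelled SR141714A in the sample labels and SR141716A in the study's methods, and MPTP-SU+T mice the PPARγ inhibitor T0070907 at 5 mg/kg. The study asked how SUEHP changes the transcriptome of both tissues after MPTP, and the 2 inhibitors address whether CB1 or PPARγ is needed. Whole tissue was sequenced, so that fewer cells of a type and less RNA per cell cannot be told apart. The labels do not say whether the 4 libraries of a group came from separate animals, so that p-values measure only the spread between these libraries.

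A midbrain library held 11958000 to 16640000 counts and a spinal cord library 14643000 to 16615000. Th and Slc6a3, which mark dopaminergic neurons, had at least 17.1 and 17.7 CPM (counts scaled to 1 common library size with TMM factors) in every midbrain library, whereas Hoxc8 and Hoxc10, which mark the caudal spinal cord, had at most 0.156 and 0.806 CPM there. In the spinal cord Hoxc8 and Hoxc10 had at least 54.5 and 73.7 CPM. The summed level of 20 endothelial marker genes was 580 to 704 CPM in the midbrain and 680 to 757 CPM in the spinal cord, and no marker was at 0 throughout. Midbrain MPTP-Veh replicate 4 stood apart. Its mitochondrially encoded genes took 1.35% of the counts, against 9.92% to 17.5% in the other midbrain libraries. Its oligodendrocyte marker sum was 35987 CPM (others 10344 to 14896 CPM) and its red blood cell sum 2529 CPM (others 213 to 402 CPM). Its endothelial marker sum of 704 CPM was also the highest of the midbrain, above the 681 CPM of MPTP-Veh replicate 2. The values that follow include this library. The comparisons and ranges of members and the tight junction lists that it enters are given without it as well. Cell type marker sums and calls include it throughout.

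In the Con libraries, the claudins and Tjp1 were the most abundant members per kilobase of transcript in both tissues. In the midbrain, Cldn5, the main claudin of brain capillaries, had 15.1 ± 1.91 CPM per kb (SD, n = 4). Tjp1, which encodes the scaffold ZO-1, followed with 13.1 ± 0.414 CPM per kb, and Cldn10, known from epithelia and astrocytes, with 12.5 ± 0.514 CPM per kb. Neighbours in this order overlapped between libraries from Cldn5 to Cldn10. Cldn12, a broadly expressed claudin, lay below all Cldn10 libraries at 10.3 ± 0.822 CPM per kb, and Rab13, a small GTPase that moves junction proteins to the membrane, lay lower again at 4.20 ± 0.228 CPM per kb. Ocln, which encodes occludin, had 2.62 ± 0.419 CPM per kb, F11r, which encodes the adhesion molecule JAM-A, 2.39 ± 0.593 CPM per kb, and Cgn, which encodes cingulin, 2.16 ± 0.424 CPM per kb. The libraries of these last 3 overlapped. Behind these levels were 45 to 1632 counts per member and midbrain library, and 51 to 2716 in the spinal cord.

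**Figure D1:**
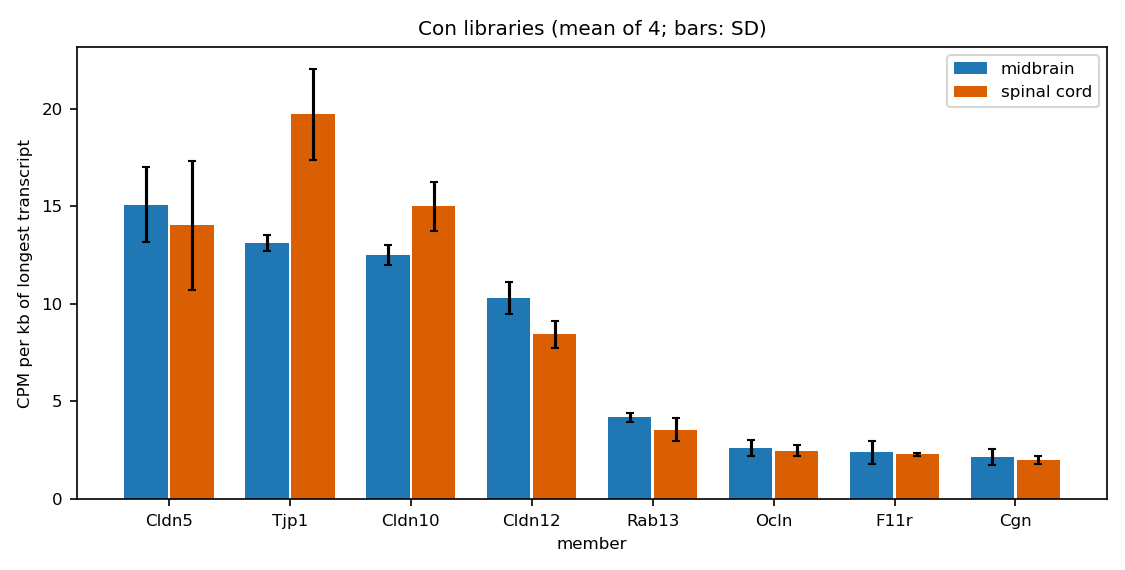
Level of each member in the Con libraries, in CPM per kb of the longest transcript (vertical axis), with bars for the mean of 4 libraries and error bars for the SD, midbrain beside spinal cord. Cldn5, Tjp1, Cldn10 and Cldn12 lie above 8 CPM per kb in both tissues, and Tjp1 is the member that differs most between the tissues (13.1 and 19.7 CPM per kb).

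The order in the spinal cord differed at the top. Tjp1 led with 19.7 ± 2.35 CPM per kb and lay above all Cldn10 libraries (15 ± 1.26 CPM per kb). Cldn5 had 14.0 ± 3.31 CPM per kb and overlapped with Cldn10, but lay above Cldn12 at 8.44 ± 0.689 CPM per kb. Rab13 (3.56 ± 0.580 CPM per kb) lay between Cldn12 and the overlapping Ocln (2.49 ± 0.282), F11r (2.29 ± 0.0942) and Cgn (1.99 ± 0.211 CPM per kb).

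Between the Con groups of the 2 tissues, 0 of 8 members passed the threshold for a differentially expressed gene, an adjusted p-value below 0.05 in edgeR's quasi-likelihood test with a fold change above 1.5, against 16.4% of the 17426 genes tested. Before adjustment, 2 members, Tjp1 and Cldn12, had p-values below 0.05, as did 39.1% of genes. Tjp1 had 92.6 ± 3.00 CPM in the midbrain and 138 ± 17.3 CPM in the spinal cord (log2 fold change -0.58 ± 0.20 SE, edgeR adjusted p = 0.0283). That is just short of 1.5-fold, and the midbrain libraries lay below all spinal cord libraries. The groups were also apart for Cldn10 (-0.25, edgeR adjusted p = 0.249) and Cldn12 (0.30, edgeR adjusted p = 0.104), as for 37.3% of all genes. Tjp1 passed the threshold with DESeq2, with RLE size factors and without midbrain MPTP-Veh replicate 4 (-0.59, edgeR adjusted p = 7.2e-06, with 18% of genes called). The other 5 members differed by at most 0.26 on the log2 scale.

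Other tight junction genes were called between the tissues. Over all genes, 7.39% were called higher and 9.02% lower in the midbrain. Of 29 listed transmembrane components, 21 were tested, and 4 were higher and 3 lower. Of 31 listed cytoplasmic components, all were tested, and 2 were higher and 6 lower. Without midbrain MPTP-Veh replicate 4 in the fit these counts were 4 and 4, and 2 and 9. Cldn2, the claudin of choroid plexus epithelium, was higher in the midbrain by 3.86 on the log2 scale (edgeR adjusted p = 0.00084), and the choroid plexus marker sum was 390, 1920, 518 and 1092 CPM in the midbrain Con libraries and 371 to 555 CPM in those of the spinal cord. Midbrain Con replicates 1 and 3 thus lay within the spinal cord range, and replicates 2 and 4 above it. Cldn19, which marks myelinating Schwann cells, had a log2 fold change of -4.80 (edgeR adjusted p = 2.4e-10), and Cgnl1, which encodes the cingulin relative paracingulin, of -2.33 (edgeR adjusted p = 2.3e-16). The part of choroid plexus content in these differences was not tested.

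MPTP alone moved no member past the threshold in the midbrain. Between MPTP-Veh and Con, 0 of 8 members were called by edgeR, DESeq2 or limma-voom, against 0.018% of 16629 genes with edgeR. Before adjustment, p-values were below 0.05 for 5 members with edgeR, where 23.7% of genes had such values, for 5 with DESeq2 and for 2 with limma-voom. Tjp1 was the member whose groups did not overlap, as for 12.4% of all genes. Its Con libraries had 91.3, 94.2, 95.1 and 88.7 CPM and its MPTP-Veh libraries 66.2, 80.9, 75.3 and 19.3 CPM (log2 fold change -0.61 ± 0.26 SE, edgeR adjusted p = 0.179). MPTP-Veh replicate 4 was the lowest by far, and without it the groups stayed apart at -0.32 (edgeR adjusted p = 0.254), with 16.4% of genes apart and 0.00594% called.

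Cldn5 showed the opposite picture in the same library. Its Con libraries had 23.8, 23.4, 18.2 and 20.0 CPM and its MPTP-Veh libraries 22.5, 26.5, 22.7 and 104 CPM. The log2 fold change of 1.04 ± 0.37 SE (edgeR adjusted p = 0.137) fell to 0.16 (edgeR adjusted p = 0.762) without replicate 4, and it passed the threshold when replicate 3 was left out in its place (1.25, edgeR adjusted p = 0.048). For the other 6 members the log2 fold changes lay between -0.41 (Ocln) and 0.60 (Rab13), and without replicate 4 between -0.24 and 0.20.

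Between MPTP-SU and MPTP-Veh in the midbrain, 4 members moved past the threshold. The stretches around their transcription starts are shown as a description of the genes called with all libraries in. These calls depend on the libraries and settings, as given below, and a link between the motifs and the changes was not tested. Each window runs from 250 bases before to 50 bases after a RefSeq start in GRCm38.p6, 5′ to 3′ on the strand of the gene, with capitals for the letters of 6 short motifs on either strand. The windows of Cgn and Rab13, which were lower, lie at chr3:94786433-94786732 (minus strand) and chr3:90213465-90213764 (plus strand). Those of Cldn10 and Cldn12, which were higher, lie at chr14:118787621-118787920 and chr14:118854700-118854999 (plus strand, separate starts) and chr5:5514927-5515226 (minus strand).
Cgn: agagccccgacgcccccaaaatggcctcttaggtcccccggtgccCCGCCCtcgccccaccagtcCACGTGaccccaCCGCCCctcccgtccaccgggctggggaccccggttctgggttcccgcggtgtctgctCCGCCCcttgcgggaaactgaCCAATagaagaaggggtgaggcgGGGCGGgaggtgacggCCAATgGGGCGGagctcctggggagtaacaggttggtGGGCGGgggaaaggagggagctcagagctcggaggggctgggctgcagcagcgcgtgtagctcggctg
Rab13: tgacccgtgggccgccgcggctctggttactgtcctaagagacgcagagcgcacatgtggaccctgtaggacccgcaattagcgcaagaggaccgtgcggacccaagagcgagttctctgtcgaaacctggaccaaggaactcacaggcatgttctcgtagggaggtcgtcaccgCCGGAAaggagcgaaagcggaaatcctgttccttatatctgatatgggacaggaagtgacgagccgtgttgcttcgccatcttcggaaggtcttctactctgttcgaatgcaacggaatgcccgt
Cldn10 upstream start: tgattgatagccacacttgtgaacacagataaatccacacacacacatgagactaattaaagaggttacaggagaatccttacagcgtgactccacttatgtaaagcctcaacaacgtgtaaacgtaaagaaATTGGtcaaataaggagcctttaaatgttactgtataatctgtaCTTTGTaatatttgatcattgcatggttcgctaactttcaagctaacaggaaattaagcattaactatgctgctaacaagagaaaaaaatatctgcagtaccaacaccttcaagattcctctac
Cldn10 downstream start: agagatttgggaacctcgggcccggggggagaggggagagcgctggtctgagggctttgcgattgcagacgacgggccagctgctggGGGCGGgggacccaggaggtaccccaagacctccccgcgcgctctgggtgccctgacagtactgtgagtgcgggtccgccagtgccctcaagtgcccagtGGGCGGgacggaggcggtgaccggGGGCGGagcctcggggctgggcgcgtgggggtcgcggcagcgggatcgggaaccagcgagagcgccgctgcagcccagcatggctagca
Cldn12: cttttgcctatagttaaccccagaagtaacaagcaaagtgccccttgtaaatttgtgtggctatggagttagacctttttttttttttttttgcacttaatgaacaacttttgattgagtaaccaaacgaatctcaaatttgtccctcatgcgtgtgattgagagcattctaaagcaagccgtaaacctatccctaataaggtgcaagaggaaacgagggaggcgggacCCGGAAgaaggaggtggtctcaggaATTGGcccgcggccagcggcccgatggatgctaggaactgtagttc

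No motif was in all 5 windows. The Cgn window held 6 copies of GGGCGG, the GC box bound by Sp1, found at least once in 35.7% of 32851 such windows. It also held 2 copies of CCAAT (37.4% of windows) and 1 of CACGTG, an E-box (7.15%). The Rab13 window held neither GGGCGG nor CCAAT and had 1 CCGGAA, an ETS core (14.9%). The Cldn12 window also had 1 CCGGAA, beside 1 CCAAT. The upstream Cldn10 window, with 36% GC, held 1 CCAAT and 1 ACAAAG (Sox core, 18.7%), and the downstream one, with 72% GC, held 3 copies of GGGCGG. The TATA box letters TATAAA, in 13.6% of windows, were in none of the 5. The motif counts depend on the start chosen. Another Rab13 start, not shown, had 1 GGGCGG and 2 CCAAT and no CCGGAA, and 2 further Cldn12 starts, which overlap the window shown, had 1 GGGCGG each. The gene counts do not tell the starts of a gene apart.

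Cgn and Rab13 were lower in MPTP-SU, and Cldn10 and Cldn12 higher. With 13.5% of all 16629 genes called (4.35% higher and 9.1% lower), 4 of 8 members were called, and the groups did not overlap for the same 4, as for 21.9% of all genes. Before adjustment, 7 members had p-values below 0.05, against 39.8% of genes. The cingulin gene Cgn had 13.3, 10.9, 12.7 and 27.2 CPM in the MPTP-Veh libraries and 9.59, 8.54, 6.56 and 6.31 CPM in the MPTP-SU libraries. Every MPTP-SU library lay below every MPTP-Veh library, by a log2 fold change of -1.04 ± 0.26 SE (edgeR adjusted p = 0.016). Rab13 had 5.37, 7.98, 7.11 and 15.9 CPM in MPTP-Veh and 3.82, 3.96, 5.00 and 4.92 CPM under MPTP-SU treatment. These libraries were again all lower, at -1.03 ± 0.26 SE (edgeR adjusted p = 0.016).

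**Figure D2:**
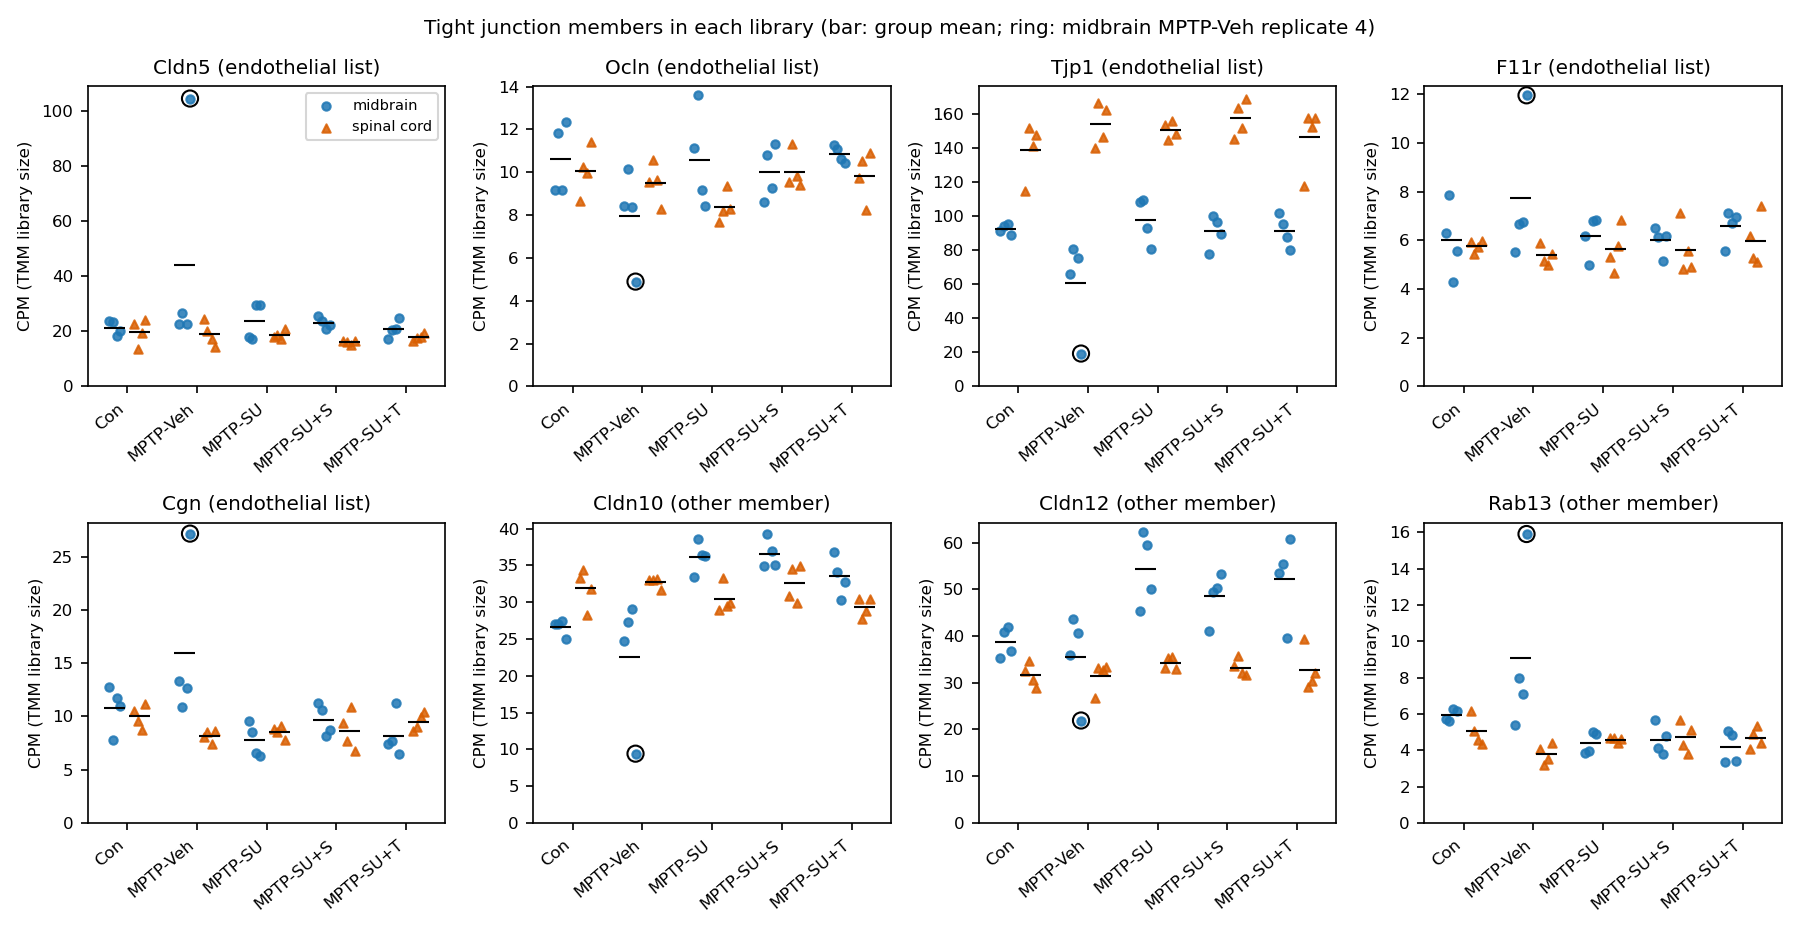
CPM of the 8 members (1 panel each, vertical axis from 0) in every library of the 5 groups, midbrain as circles and spinal cord as triangles, with a bar at each group mean and a ring around midbrain MPTP-Veh replicate 4. Library sizes were scaled within each tissue. The ringed library is the highest of its group for Cldn5, F11r, Cgn and Rab13 and the lowest for Ocln, Tjp1, Cldn10 and Cldn12, and the spinal cord groups overlap for most members.

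Cldn10 and Cldn12 moved the other way. Cldn10 had 24.7, 27.3, 29.0 and 9.41 CPM in MPTP-Veh and 33.5, 38.6, 36.4 and 36.2 CPM in MPTP-SU, with all MPTP-SU libraries higher (0.67 ± 0.21 SE, edgeR adjusted p = 0.0335). Cldn12 had 35.9, 43.7, 40.7 and 21.9 CPM in MPTP-Veh and 45.3, 62.3, 59.5 and 50.0 CPM in MPTP-SU, also without overlap (0.61 ± 0.17 SE, edgeR adjusted p = 0.0264). For Cldn10 the smallest gap between the groups was from 29.0 to 33.5 CPM, and for Cldn12 from 43.7 to 45.3 CPM. The summed level of astrocyte markers, of interest for Cldn10, overlapped between the groups (3788 to 4218 CPM without SUEHP and 3886 to 4291 CPM with it). Of 12 astrocyte markers 1 was called higher and 3 lower, beside 4.35% and 9.1% of all genes, with a median log2 fold change of 0.0989. The choroid plexus sum did not overlap (169 to 405 CPM and 446 to 509 CPM). Of its 10 tested markers 0 were called, and the median log2 fold change was 0.34.

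Some other cell type marker lists had median changes in the direction of Cgn and Rab13, where 4.35% of all genes were called higher and 9.1% lower. The endothelial and ependymal lists had medians in the other direction (0.11 and 0.0532). Of 20 endothelial markers 1 was called higher and 1 lower, and of 8 ependymal markers 0 were called in either direction. Of 12 neuron markers 2 were called lower and 0 higher (median log2 fold change -0.11). Of 5 red blood cell markers 2 were called lower and 1 higher (median -0.27). Of 12 oligodendrocyte markers 1 was called lower and 0 higher, with almost no median change (-0.0039). Of 12 pericyte and mural cell markers 2 were called lower and 0 higher (median log2 fold change -0.41), and their sum was 367, 512, 411 and 612 CPM in MPTP-Veh and 333 to 373 CPM in MPTP-SU. Of 12 microglia markers 4 were called lower and 0 higher (median -0.35), with a sum of 295, 313, 280 and 503 CPM in MPTP-Veh and 282 to 328 CPM in MPTP-SU. The microglia list was mixed, with 5 of 12 changes positive. Before adjustment, edgeR p-values were below 0.05 for 3 higher and 6 lower microglia markers, as for 17.7% (higher) and 22.1% (lower) of all genes. Of 13 leptomeningeal markers 1 was called lower and 0 higher (median -0.67), with 159, 374, 336 and 403 CPM against 175 to 241 CPM. These sums overlapped between the groups, and in each the highest value was that of MPTP-Veh replicate 4. The part of these cell types and of choroid plexus in the changes of the 4 members was not tested.

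Cldn5, Tjp1, Ocln and F11r, the members that were not called, overlapped between the groups. Cldn5 had 17.9, 17.4, 29.6 and 29.4 CPM in MPTP-SU, on both sides of MPTP-Veh replicates 1 to 3, at -0.90 ± 0.37 SE (edgeR adjusted p = 0.0849). Tjp1 had 108, 109, 92.9 and 80.6 CPM in MPTP-SU, at 0.69 ± 0.26 SE (edgeR adjusted p = 0.0657), and replicate 4 of MPTP-SU lay just below the highest MPTP-Veh library. Ocln had a log2 fold change of 0.40 ± 0.19 SE (edgeR adjusted p = 0.12) and F11r of -0.31 ± 0.21 SE (edgeR adjusted p = 0.283). The endothelial marker sum overlapped between the groups, with 580 to 704 CPM without SUEHP and 624 to 669 CPM with it. The summed level of the 5 members themselves was 138 to 145 CPM in Con, 116 to 168 CPM for MPTP-Veh and 131 to 154 CPM with SUEHP.

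Without midbrain MPTP-Veh replicate 4, the changes of all 8 members were smaller and Cgn and Rab13 remained called, where 3.4% of 16831 genes were. Cgn fell from 12.3 ± 1.27 CPM (SD, n = 3) to 7.75 ± 1.58 CPM (n = 4), at -0.66 ± 0.20 SE (edgeR adjusted p = 0.031), and Rab13 from 6.82 ± 1.33 to 4.42 ± 0.617 CPM, at -0.63 ± 0.19 SE (edgeR adjusted p = 0.0293). Cldn10 (27.0 ± 2.20 against 36.2 ± 2.10 CPM, 0.42 ± 0.08 SE, edgeR adjusted p = 0.00257), Cldn12 (40.1 ± 3.95 against 54.3 ± 7.96 CPM, 0.44 ± 0.14 SE, edgeR adjusted p = 0.0361) and Tjp1 (74.1 ± 7.42 against 97.8 ± 13.7 CPM, 0.40 ± 0.11 SE, edgeR adjusted p = 0.021) had adjusted p-values below 0.05 at less than 1.5-fold. Cldn5 and F11r were at -0.02 and -0.03. The same 4 members as with all libraries had groups that did not overlap, as did 24.5% of all genes. Leaving out other libraries also changed calls. Cgn was called in all 8 cases, Rab13 in all but MPTP-SU replicate 2 left out (adjusted p = 0.0526 in edgeR), Cldn12 lost its call without MPTP-SU replicate 2 or 3, and Cldn10 without any 1 of the 4 MPTP-SU libraries (0.64 to 0.71, edgeR adjusted p from 0.0543 to 0.0844). In the other direction, Cldn5 was called without MPTP-Veh replicate 1, 2 or 3 (-1.07 to -1.11, edgeR adjusted p from 0.0335 to 0.0464) and Tjp1 without replicate 2 or 3 (0.87 and 0.82, edgeR adjusted p = 0.0332 and 0.0424). With the 8 libraries of both groups fitted alone, 0 members and 0 of 15764 genes were called by edgeR, with 3 members and 3219 genes at an unadjusted p-value below 0.05.

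**Figure D3:**
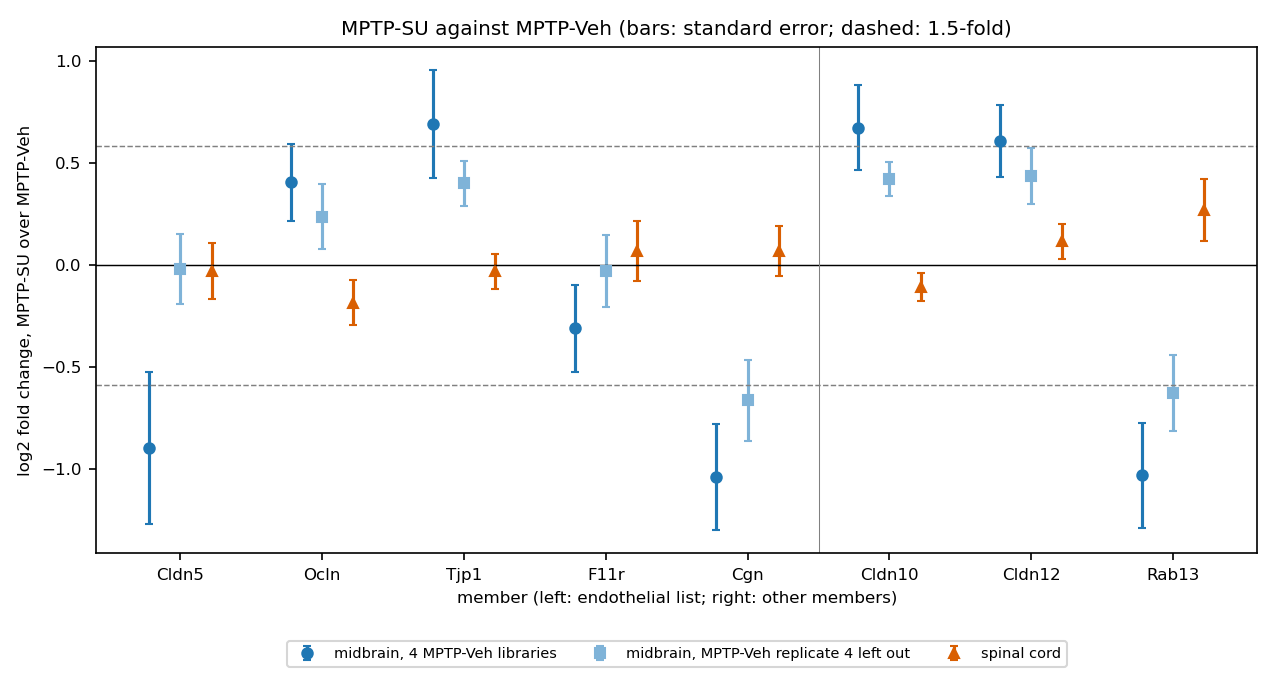
Log2 fold change of each member between MPTP-SU and MPTP-Veh (vertical axis), with standard error bars, in the midbrain with all 4 MPTP-Veh libraries (dark circles), in the midbrain without MPTP-Veh replicate 4 (light squares) and in the spinal cord (triangles). Dashed lines mark 1.5-fold. Cgn and Rab13 lie below the lower line with and without that library, whereas the spinal cord values stay between -0.18 and 0.27.

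Cldn5 and Tjp1 also moved with the base composition of a library. For each library, the deviation of each gene from its median level was set against the GC content of its longest transcript. A transcript was at hand for 91.7% of the genes tested in the midbrain. The rank correlation ran from -0.58 to 0.61 over the midbrain libraries. It was 0.61 in MPTP-Veh replicate 4, and -0.54 and -0.52 in MPTP-SU replicates 1 and 2. Cldn5, the member with the highest GC content (60.5%), was high where this value was high, and Tjp1, with 46.8% GC, was low there. Not every member followed its GC content. Cgn, with 54.7% GC, was high in MPTP-Veh replicate 4 but ran the other way within MPTP-SU. It had 9.59 and 8.54 CPM in replicates 1 and 2, and 6.56 and 6.31 CPM in replicates 3 and 4, where the correlation was 0.0753 and 0.221. The same correlation with transcript length was -0.153, -0.228, -0.161 and -0.243 in MPTP-Veh replicates 1 to 4. In the other midbrain libraries it ran from -0.132 to 0.286, so that the whole MPTP-Veh group lay below them. The part of length alone in the changes from MPTP-Veh was not tested. After a trend on GC content and length was removed from each library, Cgn (-0.82, edgeR adjusted p = 0.0157), Rab13 (-0.84, edgeR adjusted p = 0.0215) and Cldn10 (0.75, edgeR adjusted p = 0.0189) were called between MPTP-SU and MPTP-Veh, with 9.75% of genes. Cldn12 was at 0.42 (edgeR adjusted p = 0.0285), and Cldn5 shrank from -0.90 to -0.11 (edgeR adjusted p = 0.665). When MPTP-Veh replicate 4 was left out as well, Cgn was the 1 member called (-0.63, edgeR adjusted p = 0.0458), with 2.72% of genes. Rab13 was then at -0.47 (edgeR adjusted p = 0.0765), Cldn12 at 0.36 (edgeR adjusted p = 0.0629) and Cldn10 at 0.50, under 1.5-fold (edgeR adjusted p = 0.000656).

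**Figure D4:**
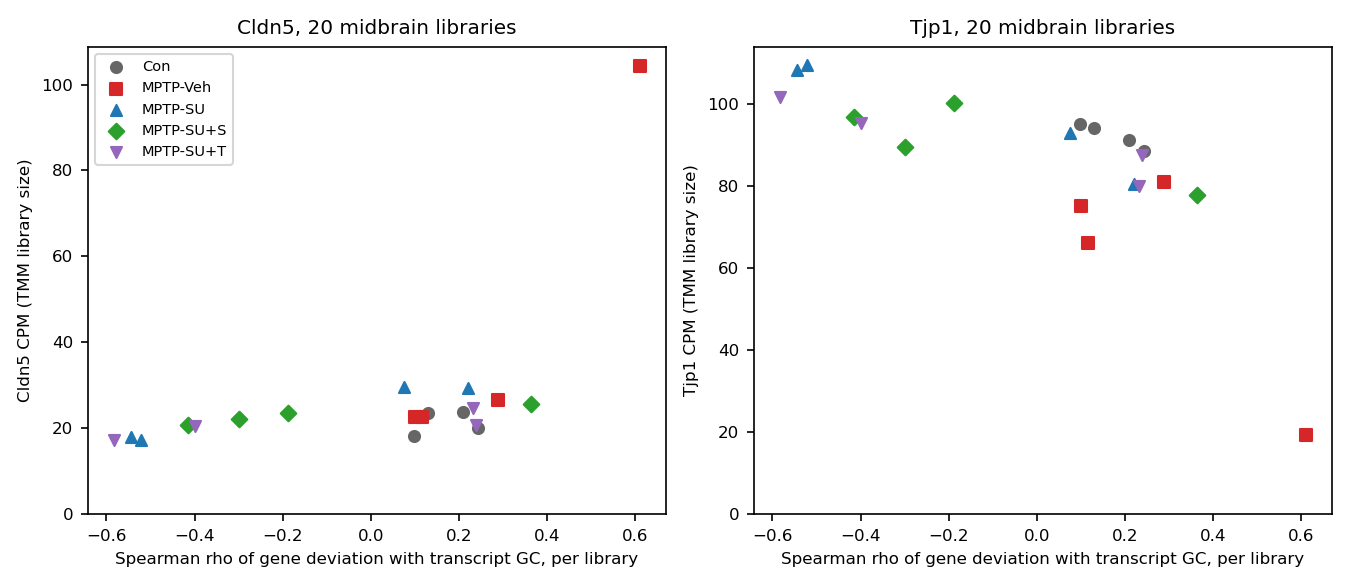
CPM of Cldn5 and of Tjp1 (vertical axes, from 0) in the 20 midbrain libraries, against the Spearman correlation of gene deviations with transcript GC content in the same library (horizontal axis), with 1 symbol per group. MPTP-Veh replicate 4 lies at the far right at 0.61, with 104 CPM for Cldn5 and 19.3 CPM for Tjp1.

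No member of the midbrain passed the threshold between an inhibitor group and MPTP-SU. With MPTP-SU+S or MPTP-SU+T against MPTP-SU, edgeR called 0 members and 0 genes, DESeq2 called 0 members and 0 and 1 genes, and limma-voom called 0 of either. Before adjustment, 0 members had p-values below 0.05 with any of these tools, against 1.65% and 1.7% of genes with edgeR. The groups overlapped for all 8 members in both comparisons, and did not for 2.15% and 1.96% of genes. Cldn10 had 36.6 ± 2.06 CPM in MPTP-SU+S and 33.5 ± 2.73 CPM in MPTP-SU+T, against 36.2 ± 2.10 CPM in MPTP-SU (log2 fold changes 0.02 ± 0.21 and -0.11 ± 0.21 SE). Cgn had 9.68 ± 1.47 and 8.21 ± 2.09 CPM, against 7.75 ± 1.58 CPM (0.32 ± 0.26 and 0.09 ± 0.26 SE). Cldn12 (48.5 ± 5.26 and 52.3 ± 9.0 CPM) and Rab13 (4.58 ± 0.836 and 4.15 ± 0.899 CPM) had log2 fold changes between -0.16 and 0.05. With MPTP-Veh replicate 4 out of the shared estimate of the spread, edgeR again called 0 members and 0 genes in both. Values below the threshold do not show that the groups were alike.

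Against Con, MPTP-SU had 0 called members in the midbrain, where edgeR called 0.764% of genes, and DESeq2 and limma-voom also called 0 members. Before adjustment, Cldn10 and Cldn12 were the 2 members with p-values below 0.05, against 16.1% of genes. Their MPTP-SU libraries lay above all Con libraries, and those of Rab13 below, as for 19.6% of all genes in either direction. Cldn10 was at 0.44 ± 0.21 SE (edgeR adjusted p = 0.301), Cldn12 at 0.49 ± 0.17 SE (edgeR adjusted p = 0.165) and Rab13 at -0.42 ± 0.26 SE (edgeR adjusted p = 0.44). With MPTP-Veh replicate 4 out of the shared estimate of the spread, Cldn10 and Cldn12 kept these fold changes, under 1.5-fold, with edgeR adjusted p-values of 0.00139 and 0.0137, where 4.67% of genes were called and 19.4% were apart. All comparisons with MPTP-SU share its 4 libraries, and those with MPTP-Veh or Con share theirs, so that they are not independent of each other.

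Spinal cord members stayed below the threshold: 0 of 8 were called in any of the 5 comparisons by edgeR, DESeq2 or limma-voom. Of all 16682 genes, edgeR called 0.024% between MPTP-SU+T and MPTP-SU and 0 in the other 4. Before adjustment, edgeR gave p-values below 0.05 for 2 members between MPTP-Veh and Con, Cgn and Rab13 (12.8% of genes), and for 0 between MPTP-SU and MPTP-Veh (3.81%). Ocln was the 1 such member for MPTP-SU+S against MPTP-SU (5.49%), for MPTP-SU+T against MPTP-SU (12.1%) and for MPTP-SU against Con (9.17%). Over the 20 libraries the highest level of a member was 1.26 to 1.92 times its lowest, against 2.78 to 6.03 times in the midbrain. MPTP-Veh replicate 4 was the highest or lowest midbrain library for all 8 members, and over the other 19 the range was 1.6 to 2.39 times.

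Groups of the spinal cord were apart for a few members. Cgn had 10.5, 9.58, 8.75 and 11.2 CPM in Con and 8.09, 8.51, 7.43 and 8.67 CPM in MPTP-Veh. All MPTP-Veh libraries were lower (-0.29 ± 0.12 SE, edgeR adjusted p = 0.32), as in 4.73% of all genes in either direction. Between MPTP-SU+S and MPTP-SU, Cldn5 was lower (-0.21 ± 0.14 SE, edgeR adjusted p = 0.914) and Ocln higher (0.26 ± 0.11 SE, edgeR adjusted p = 0.899) without overlap, as in 4.19% of genes. No member was apart in MPTP-SU against MPTP-Veh, MPTP-SU+T against MPTP-SU or MPTP-SU against Con, where 3.27%, 8.04% and 3.51% of genes were.

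The change between MPTP-SU and MPTP-Veh was then compared between the tissues as an interaction in 1 model of all 40 libraries. The difference passed the threshold for Rab13, Cgn and Cldn10, where 12.1% of 17426 genes did, and 7 members had p-values below 0.05 before adjustment, against 34.6% of genes. Rab13 had 4.08, 3.21, 3.53 and 4.40 CPM in the MPTP-Veh libraries of the spinal cord and 4.68, 4.70, 4.37 and 4.596 CPM in MPTP-SU. There it changed by 0.27 ± 0.15 SE on the log2 scale, and the midbrain minus the spinal cord gave a difference of -1.29 ± 0.30 SE (edgeR adjusted p = 0.0055). Cgn had 8.09, 8.51, 7.43 and 8.67 CPM in MPTP-Veh and 8.86, 8.58, 9.11 and 7.76 CPM in MPTP-SU of the spinal cord. Those groups overlapped, and the difference between the tissues was -1.10 ± 0.29 SE (edgeR adjusted p = 0.0121). Cldn10 had 33.0, 33.0, 33.2 and 31.7 CPM in MPTP-Veh and 29.0, 33.3, 29.4 and 29.9 CPM in MPTP-SU, and differed by 0.78 ± 0.22 SE (edgeR adjusted p = 0.0167).

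For the other 5 members the difference did not pass, at 0.49 for Cldn12 (edgeR adjusted p = 0.0771), 0.72 for Tjp1 (edgeR adjusted p = 0.0716), 0.59 for Ocln (edgeR adjusted p = 0.0572), -0.85 for Cldn5 (edgeR adjusted p = 0.14) and -0.37 for F11r (edgeR adjusted p = 0.311). Without midbrain MPTP-Veh replicate 4, Rab13 (-0.88, edgeR adjusted p = 0.011) and Cgn (-0.71, edgeR adjusted p = 0.0398) were called, with 3.9% of genes, and Cldn10 (0.54, edgeR adjusted p = 0.000654) and Tjp1 (0.45, edgeR adjusted p = 0.0386) were under 1.5-fold.

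Among the wider lists of tight junction genes, which include the members, the change between MPTP-SU and MPTP-Veh in the midbrain added 1 gene. Ildr2, which encodes a protein of tricellular junctions, was higher at 1.22 ± 0.42 SE (edgeR adjusted p = 0.0488), with groups that overlapped. Without MPTP-Veh replicate 4 Ildr2 was at 0.94 (edgeR adjusted p = 0.111). Of 21 transmembrane components tested, 3 were higher (Cldn10, Cldn12 and Ildr2) and 0 lower, beside the 4.35% higher and 9.1% lower of all genes, with a median log2 fold change of 0.27 against 7e-04 over all genes. Of 31 cytoplasmic components, 0 were higher and 2 lower (Cgn and Rab13), with a median of 0.0856. Before adjustment, p-values were below 0.05 for 8 higher and 1 lower transmembrane components and for 3 higher and 6 lower cytoplasmic ones, as for 17.7% (higher) and 22.1% (lower) of all genes. Without MPTP-Veh replicate 4, Cgn and Rab13 were the called genes of both lists. The medians were then 0.24 and 0.0604 (0.0154 over all genes), and p-values were below 0.05 for 7 higher and 0 lower transmembrane components and for 3 higher and 4 lower cytoplasmic ones, against 28.8% of genes in either direction. In the interaction Jam2, which encodes the adhesion molecule JAM-B, passed beside the 3 members (0.75 ± 0.25 SE, edgeR adjusted p = 0.0357), and without MPTP-Veh replicate 4 it was at 0.50 (edgeR adjusted p = 0.00807), under 1.5-fold. In the other 4 comparisons of the midbrain and all 5 of the spinal cord, edgeR called 0 genes of either list with all libraries in. Without that library Cldn2 was called between MPTP-SU and Con in the midbrain (-2.63, edgeR adjusted p = 0.0408). Its level was low and uneven, at 0.433 ± 0.470 CPM (SD) in MPTP-SU and 2.64 ± 2.88 CPM in Con. Of 10 choroid plexus markers tested there with all libraries in, 1 was called lower and 0 higher, beside 0.764% of all genes. Their median log2 fold change was -1.44. The part of choroid plexus content in the change of Cldn2 was not tested.

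Within the midbrain, several pairs of members varied together across libraries of the same group, with MPTP-Veh replicate 4 included. After each group mean was removed, the log2 CPM of Cldn5 and Tjp1 ran in opposite directions over 20 libraries (Pearson r = -0.94, Spearman rho = -0.881, and r = -0.819 without the 2 libraries farthest from the median, MPTP-Veh replicates 4 and 1). Tjp1 ran with Cldn10 (r = 0.956, rho = 0.789, r = 0.787 without 2 libraries) and Cldn5 with F11r (r = 0.845, rho = 0.869, r = 0.69 without 2). Cldn10 ran with Cldn12 (r = 0.807, rho = 0.632, r = 0.644 without 2). For Cgn and Rab13, r fell from 0.585 to 0.173 without MPTP-Veh replicate 4 and MPTP-SU+T replicate 3, so that their relation rests on those libraries. In the spinal cord the same pairs, in this order, gave r of -0.231, -0.076, 0.308, 0.374 and -0.085. Without 2 libraries each, r was 0.018, 0.184, 0.249, 0.373 and 0.323. Group means were taken with all libraries in. The midbrain values without 2 libraries thus still depend on MPTP-Veh replicate 4 through its group mean, and do not show the relations free of it. The midbrain libraries share the trend with GC content described above, and the values are descriptions.

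The genes whose group-centred levels were most like those of a member, by Spearman's rho over 20 libraries, are given as a description. In the midbrain Cldn5 was nearest to Chmp1a (0.971), Eif3f (0.959) and Rabac1 (0.959), and Tjp1 to Dtna (0.985), 1700066M21Rik (0.979) and Tmem30a (0.977). Cldn10 was nearest to Tra2b (0.922), Cldn12 to Kitl (0.955), Cgn to Lpin1 (0.934), Ocln to Plagl2 (0.896) and Rab13 to Rps15 (0.889). F11r was nearest to Atox1 (0.920), and its list of 3 also held Tie1 (0.895), a receptor of endothelial cells. Over the 19 midbrain libraries without MPTP-Veh replicate 4, the rho of Rab13 with Rps15 was 0.532 and that of Cldn5 with Chmp1a 0.802, so that these rest in part on that library. Plagl2, Dtna, Atox1 and Tra2b were still the nearest genes of Ocln (0.874), Tjp1 (0.981), F11r (0.911) and Cldn10 (0.856), whereas Kitl (0.942) and Lpin1 (0.842) were no longer first for Cldn12 and Cgn. In the spinal cord the nearest genes had rho of 0.785 to 0.907 and were others, such as Hdac5 for Cldn5 (0.907), Itprid2 for Tjp1 (0.890) and Ablim1 for Cgn (0.796).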

How the data were processed

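Messenger RNA of mouse midbrain and spinal cord was sequenced in 40 libraries. Reads went through fastp, STAR and Salmon in the authors' hands, and the deposited tables, 1 per library, give an estimated count for each gene symbol as a whole number, without normalisation. The submitters' processing notes also name GATK and GRCm39. Which versions and annotation were used, and whether molecular identifiers were counted, is not given in the sources used here.

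The counts were tested in R 4.3.3 with edgeR 4.0.16 (TMM factors, quasi-likelihood F test, Benjamini-Hochberg adjustment over all genes that passed edgeR's low count filter). 1 fit per tissue held its 5 groups, so that they share an estimate of the spread, and the comparisons between tissues came from 1 fit of all 40 libraries. Calls required more than 1.5-fold change together with an adjusted p-value under 0.05. CPM values were scaled within each tissue, and in the comparison of Con groups over both tissues. Standard errors of log2 fold changes are the change divided by the root of its F value, and log2 CPM values, used for overlaps and correlations, had a prior count of 2. Lengths and GC contents came from the longest GENCODE transcript of each gene in a build other than that of the counts, so that only names, lengths and composition were used from it. Library totals give 45 or more counts for each member. Alternatives were limma-voom 3.58.1, DESeq2 1.42.0, other scalings and filters, a replicate block, the groups of a comparison alone, each replicate of a comparison left out and, added after the data were seen, removal of a GC and length trend, with and without midbrain MPTP-Veh replicate 4, and that library left out of comparisons between other groups. The closest replicate pair differed by a chi-square of 2.76 per degree of freedom, so that no library was taken as a copy of another.

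The code of these tests was tested on simulated data with known changes. The simulated counts held no outlying library and no trend with GC content or length. They thus do not bear on how these features affect the midbrain calls. The members and all gene lists were chosen with earlier results of these data known. Besides the members, called genes of the tight junction lists were named by smallest p-value, at most 5 per direction, and for each member the 3 genes with the highest rank correlation of group-centred log2 CPM. Markers of tissue origin (Th, Slc6a3, Hoxc8, Hoxc10) were chosen after the data were seen.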

Additional observations from a re-analysis of the deposited data

Results flagged for a closer look

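Each of the 8 members in each of the 10 groups was checked for a library far from the other 3 by Dixon's ratio, and 5 of 80 passed the 95% critical value, where chance gives about 1 in 20. In midbrain MPTP-Veh, replicate 4 was the high library for Cldn5 (104.4 CPM) and Cgn (27.19 CPM). This is the library with 1.35% mitochondrial counts described above. In the spinal cord, MPTP-SU+T replicate 1 was low for Tjp1 (117.4 CPM, others 152 to 158 CPM), MPTP-Veh replicate 4 was low for Cldn10 (31.72 CPM, others 33.0 to 33.2 CPM) and MPTP-Veh replicate 1 was low for Cldn12 (26.84 CPM, others 32.6 to 33.4 CPM).

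The difference between the tissues in the change from MPTP-Veh to MPTP-SU passed its own test for 3 members, at -1.10 for Cgn, 0.78 for Cldn10 and -1.29 for Rab13 on the log2 scale. Without midbrain MPTP-Veh replicate 4 these were -0.71, 0.54 and -0.88.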

How the results depend on the processing

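Of 138 values of called members under an alternative, 118 stayed called and 20 lost the call, and 0 changed direction. Of 1550 values of members not called, 1450 kept direction and side of the threshold, 32 gained a call and 68 changed direction, the largest of these at 0.1931 on the log2 scale and none of them called. Midbrain calls depended on which libraries entered the fit. With the 8 libraries of MPTP-SU and MPTP-Veh alone, 0 members and 0 genes were called, against 2237 genes with all 20 libraries and 572 without MPTP-Veh replicate 4. The lowest count of a member in a library was 45 (midbrain) or 51 (spinal cord), so that counting error is widest for the low members.

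Members called between MPTP-SU and MPTP-Veh in the midbrain numbered 2 with library size alone (Cgn and Rab13, 11.2% of genes) and 1, Cgn, with the GC and length trend removed and MPTP-Veh replicate 4 left out (2.72% of genes). Between the Con groups 1 member, Tjp1, was called with DESeq2, RLE factors or at least 10 counts in every library (17%, 16.4% and 14.1% of genes), and the difference between tissues had 5 called members with at least 10 counts (16.4% of genes), where Ocln and Tjp1 were gained. The cause was not tested. Leaving out 1 library gave 1 to 6 called members for MPTP-SU against MPTP-Veh in the midbrain (1 without MPTP-SU replicate 2, 6 without MPTP-Veh replicate 2 or 3), 0 to 1 for MPTP-Veh against Con, 0 to 1 for Con between tissues and 2 to 6 for the difference between tissues. An alternative without a low count filter was not run for the comparisons between tissues.

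The replicate numbers were not taken to pair the libraries, since the labels tie no number to an animal or batch and no pair of groups had all 4 same-numbered correlations above 0.1. Between MPTP-Veh and MPTP-SU in the midbrain they were 0.231, 0.179, -0.0708 and 0.261. Same-numbered libraries correlated above 0.1 in 13 of 40 midbrain pairs, 6 of 40 spinal cord pairs and 2 of 20 pairs between tissues. Among the 4 spinal cord libraries of their group, 10 of 20 midbrain libraries correlated best with the one of their own number. That is more than unrelated numbers would give on average, and whether such libraries share an animal was not tested. With the replicate block, 5 members were called for MPTP-SU against MPTP-Veh in the midbrain (Tjp1 gained, 12.1% of genes), 4 for the difference between tissues (Ocln gained, 8.82% of genes) and 0 between the Con groups (15.8% of genes), and Cldn5 between MPTP-SU+S and MPTP-SU turned to 0.0087.

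The other log2 fold changes that turned sign were small. With limma-voom they were 0.0064 for midbrain Cldn5 and -0.0041 for spinal cord Cgn between MPTP-SU+S and MPTP-SU. With library size alone, midbrain values turned to 0.0297 (Cldn5) and 0.0194 (F11r) for MPTP-SU+S against MPTP-SU, 0.030 (Cldn12) and 0.0012 (Rab13) for MPTP-SU+T against MPTP-SU, and -0.0372 (Tjp1) and -0.0714 (F11r) for MPTP-SU against Con. Spinal cord values turned to 0.0122 (Cldn12, MPTP-Veh against Con) and -0.0019 (Cgn, MPTP-SU+S against MPTP-SU). With the GC and length trend removed they were 0.0455 (midbrain Cldn12, MPTP-Veh against Con) and -0.0089 (midbrain Cldn10, MPTP-SU+S against MPTP-SU), and with MPTP-Veh replicate 4 left out as well 0.1931 (Cldn5) and 0.0021 (F11r) for MPTP-SU against MPTP-Veh in the midbrain.

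Leaving out 1 library turned the sign of further values that were not called, within these ranges. In the midbrain, MPTP-Veh against Con gave -0.3756 to 0.021 for Cldn10 and -0.2355 to 0.0515 for Cldn12, and MPTP-SU against Con -0.1484 to 0.0881 for Ocln and -0.0898 to 0.2008 for F11r. MPTP-SU+S against MPTP-SU gave -0.1552 to 0.0957 for Cldn5, -0.1745 to 0.062 for Ocln, -0.1391 to 0.0124 for F11r, -0.0212 to 0.0482 for Cldn10 and -0.067 to 0.1287 for Rab13. MPTP-SU+T against MPTP-SU gave -0.0573 to 0.1792 for Ocln, -0.0025 to 0.1577 for F11r, -0.1108 to 0.2036 for Cgn and -0.1389 to 0.0544 for Cldn12.

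Spinal cord MPTP-Veh against Con gave -0.2153 to 0.0374 for Cldn5, -0.0168 to 0.0802 for Cldn10 and -0.0486 to 0.0646 for Cldn12, and MPTP-SU against Con -0.2365 to 0.0064 for Cldn5 and -0.1358 to 0.0505 for F11r. MPTP-SU against MPTP-Veh gave -0.1402 to 0.1123 for Cldn5, -0.0726 to 0.009 for Tjp1 and -0.0364 to 0.1496 for F11r. MPTP-SU+S against MPTP-SU gave -0.1461 to 0.0956 for F11r, -0.1109 to 0.1162 for Cgn and -0.058 to 0.1298 for Rab13. MPTP-SU+T against MPTP-SU gave -0.102 to 0.0036 for Cldn5, -0.0834 to 0.0425 for Tjp1, -0.0408 to 0.1851 for F11r and -0.0426 to 0.0811 for Rab13. Between the Con groups of the tissues the ranges were -0.0373 to 0.2105 for Cldn5, -0.0051 to 0.1438 for Ocln and -0.0955 to 0.1922 for F11r, and the difference between tissues gave -1.0861 to 0.0278 for Cldn5, where the positive value came without midbrain MPTP-Veh replicate 4.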
